A study of Mus musculus with 18 samples.

Results

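T cell and cytotoxic lymphocyte genes were followed through cultures and tumors of mouse ovarian cancer cells. The set holds 38 listed genes of T cells, natural killer (NK) cells, cytotoxic cells and regulatory T cells, among 54752 genes in the table, and all 38 were found there by identifier. RNA was sequenced from HM-1 cells (strain label B6C3F1) and ID8 cells (strain label C57BL6), both lines of mouse ovarian cancer cells, in culture, and from HM-1 tumors grown in the skin of B6C3F1 mice and taken on day 10. Each of these came as a control and as a group labelled Cd276KO, a knockout of Cd276, which encodes the immune checkpoint protein B7-H3, with 3 libraries in each of 6 groups. The design text states a comparison of knockout with control in each line and in tumors. The labels name biological replicates but not clones, the way the gene was disrupted, or whether tumors of a group came from separate mice. The p-values therefore measure the spread between these libraries, which may be partly technical.

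T cells recognise antigen through a receptor whose signal is carried by the CD3 chains and the kinases Lck and Zap70, while CD4 and CD8 bind the antigen-presenting molecules. Cytotoxic T cells and NK cells kill by releasing perforin, which opens the target membrane, together with granzymes, proteases that trigger cell death. Regulatory T cells, which carry the transcription factor Foxp3 and the interleukin 2 receptor chain CD25, restrain such responses and are frequent in many tumors.

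Levels are read counts per 1000000 counts of a library (CPM), and library totals ran from 17349082 to 30959773. A count of 3 in a library corresponded to 0.0969 to 0.173 CPM, and differences of that size were not detectable. Cd276 itself stood at 142, 107 and 116 CPM in control tumors 1, 2 and 3 and at 73.2, 97.2 and 89.5 CPM in the tumors labelled Cd276KO, a log2 fold change of -0.45 that was not called (SE 0.14, edgeR quasi-likelihood test, Benjamini-Hochberg adjusted p = 0.1053). It fell in HM-1 cultures labelled Cd276KO (log2 fold change -0.85, SE 0.10, adjusted p = 0.001457, same test). In ID8 cultures it was not called, with a log2 fold change of -0.04 and an adjusted p of 0.6923 by edgeR. The deleted part of the gene is not given in the sources used here, so these counts are a weak check of the labels. Control tumor 3 stood apart from the other control tumors, with a chi-square value per gene of 149 and 90.5 against them, where control tumors 1 and 2 gave 45.4. HM-1 control culture 1 also stood apart, with values of 71.3 and 69.9 against 1.62 between the other 2 cultures. Calls of the lymphocyte genes, and of related genes in tumors, are also given without these libraries, singly or as counts.

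The genes that carried the tumor result were Gzmb and Ptpn22, and Prf1 and Eomes had all 3 Cd276KO tumors below all 3 control tumors. Their start regions are printed so that the killing genes can be set beside the genes that the cancer cells also expressed. Each run is the 250 bases before the RefSeq start on GRCm38.p6, on the gene's own strand. Gzmb lies at chr14:56262335-56262584 on the minus strand, Prf1 at chr10:61297586-61297835 on the plus strand, Ptpn22 at chr3:103859545-103859794 on the plus strand and Eomes at chr9:118477939-118478188 on the plus strand. Capitals mark matches, on either strand, to RUNX (TGTGGT), AP-1 (TGANTCA), T-box (AGGTGT) and STAT (TTCNNNGAA) motifs.
Gzmb: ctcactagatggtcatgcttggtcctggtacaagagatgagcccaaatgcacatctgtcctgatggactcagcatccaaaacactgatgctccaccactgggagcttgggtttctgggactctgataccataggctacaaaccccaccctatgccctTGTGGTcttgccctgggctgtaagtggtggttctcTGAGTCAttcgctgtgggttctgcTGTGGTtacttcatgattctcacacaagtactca
Prf1: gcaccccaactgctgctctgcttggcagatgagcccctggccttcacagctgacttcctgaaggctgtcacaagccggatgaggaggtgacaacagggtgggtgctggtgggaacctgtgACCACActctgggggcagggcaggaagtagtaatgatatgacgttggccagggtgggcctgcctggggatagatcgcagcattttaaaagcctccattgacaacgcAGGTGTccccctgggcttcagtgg
Ptpn22: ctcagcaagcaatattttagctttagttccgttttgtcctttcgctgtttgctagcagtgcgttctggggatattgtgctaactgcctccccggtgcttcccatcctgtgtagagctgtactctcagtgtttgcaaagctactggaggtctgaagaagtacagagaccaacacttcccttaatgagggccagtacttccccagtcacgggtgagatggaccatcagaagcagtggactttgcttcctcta
Eomes: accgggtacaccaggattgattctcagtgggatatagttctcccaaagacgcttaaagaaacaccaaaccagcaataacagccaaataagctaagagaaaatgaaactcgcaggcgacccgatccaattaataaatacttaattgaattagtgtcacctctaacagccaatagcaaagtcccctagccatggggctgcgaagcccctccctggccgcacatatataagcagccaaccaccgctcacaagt
The Gzmb run held 2 RUNX matches, 93 and 34 bases before the start, and 1 AP-1 match at 58 bases. These positions hold for the RefSeq start of Gzmb, which lies 74 bases from its start in the GENCODE annotation. The Prf1 run held 1 RUNX match on the other strand at 130 bases and 1 T-box match at 24 bases. Of 32851 mouse windows of this length, 14.0% held the RUNX letters, 6.75% AP-1, 11.8% T-box and 7.02% STAT. The Ptpn22 and Eomes runs held no match. A match is a description of the letters and not of binding, and 30 of the 38 genes had such a window.

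Lymphocyte transcripts were present in every tumor but scarce. Of the 38 genes, 29 had at least 1 count in all 6 tumors, and 23 had a mean under 1 CPM over the tumors. Per kilobase of exon, the order over the 6 tumors was led by Tcf7 at 22.1 CPM per kilobase, Eomes at 3.02, Ptpn22 at 1.83, Gzmb at 1.53 and Lck at 1.20. Cxcr3 followed at 0.835 and Cd4 at 0.652, and Themis closed the order at 0.0036. The library ranges of Ptpn22 (0.271 to 5.48 CPM per kilobase) and Gzmb (0.116 to 5.12) overlapped those of every other gene named in this order but Tcf7 and Themis. Eomes, whose lowest library held 1.71 CPM per kilobase, lay just above the highest libraries of Lck, Cxcr3 and Cd4, which overlapped one another. HM-1 cultures, which should hold no lymphocytes, had no count of Cd3d, Cd3e, Cd2, Gzmb, Nkg7, Xcl1 or Ncr1. Tcf7, Eomes, Ptpn22 and Lck were nonetheless expressed in those cultures, so in HM-1 tumors their level is not a lymphocyte level alone. In all, 23 genes were under 0.1 CPM on average in both HM-1 culture groups and serve as the set with low culture background.

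Summed over the 38 genes, the control tumors stood at 148, 132 and 131 CPM and the Cd276KO tumors at 84.4, 99.5 and 106 CPM, a log2 ratio of means of -0.51. The groups did not overlap. Most of this sum came from genes that the cancer cells also expressed, and the HM-1 cultures alone gave 96.1 to 103 CPM in controls and 68.6 to 77.0 CPM when labelled Cd276KO. Over the 23 genes with low culture background, the tumors stood at 28.9, 14.7 and 19.5 CPM in controls and at 3.62, 7.88 and 10.8 CPM when labelled Cd276KO. Again the groups did not overlap, and the log2 ratio was -1.50, with a range of -1.87 to -1.17 when each tumor was left out in turn. The HM-1 cultures gave 0.169 to 0.722 CPM for this sum. In bulk tumors, fewer lymphocytes and less RNA per lymphocyte cannot be told apart.

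**Figure D1:**
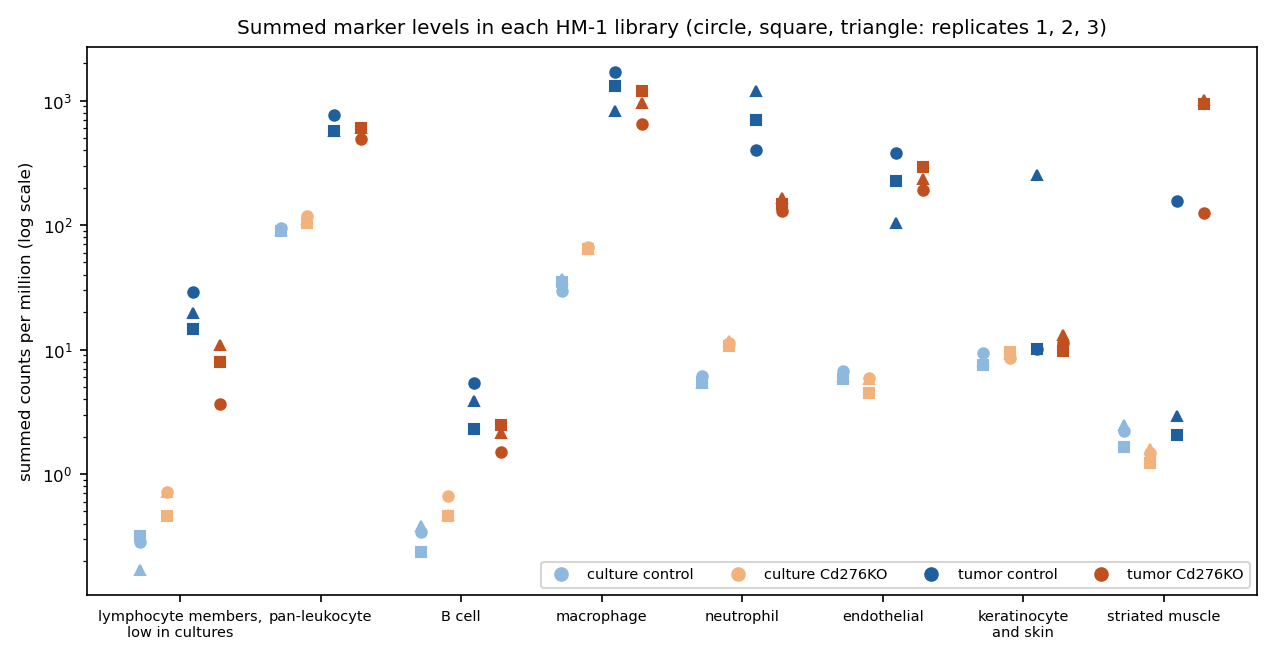
Summed CPM (log axis) of the 23 lymphocyte genes with low culture background and of marker lists of other cell types, for each library of the 4 HM-1 groups (circle, square and triangle are replicates 1, 2 and 3). The lymphocyte sum is 14.7 to 28.9 CPM in control tumors and 3.62 to 10.8 CPM in Cd276KO tumors, while neutrophil, keratinocyte and muscle sums also differ between tumors.

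Of the other cell types, the summed neutrophil list separated the tumor groups. A neutrophil list of 10 genes, led by Mmp9 and S100a9, summed to 400, 704 and 1183 CPM in control tumors and to 129, 147 and 165 CPM in Cd276KO tumors. Of its 8 tested genes, 7 had negative log2 fold changes, and Ly6g had a positive one (0.47, edgeR adjusted p = 0.4611). Not called were 6 genes, among them Ly6g and S100a9 (edgeR adjusted p = 0.1194 for S100a9). The other 2 fell (Mmp9 and Csf3r), where 3.18% of all tested genes were called lower. Both calls held without control tumor 3 but not without any 1 of the Cd276KO tumors. Without control tumor 2 both were lost (edgeR adjusted p = 0.06139 for Mmp9 and 0.05758 for Csf3r). Csf3r was also lost without control tumor 1 (edgeR adjusted p = 0.06228), where Mmp9 was still called. Striated muscle genes summed to 156, 2.06 and 2.92 CPM in controls and 126, 933 and 1001 CPM in Cd276KO tumors, with none of 9 called. Keratinocyte genes reached 253 CPM in control tumor 3 and 9.79 to 13.1 CPM in the other 5 tumors. The summed pan-leukocyte list of 9 genes overlapped between groups, at 771, 568 and 565 CPM against 493, 598 and 597 CPM. This sum was led by Cd53, which HM-1 cultures also expressed, at 26.0 ± 1.75 CPM in controls and 80.1 ± 7.41 CPM with the Cd276KO label (SD, n = 3). Of the 9 genes, 8 had negative log2 fold changes between tumors, with a median of -0.65, 2 called lower and Cd53 called higher, where 2.2% of all tested genes were called higher. The list without Cd53, a choice made after the values were seen, gave 661, 445 and 482 CPM in control tumors and 217, 329 and 306 CPM in Cd276KO tumors, without overlap (log2 ratio -0.90). HM-1 cultures expressed these 8 genes too, at 67.2, 64.8 and 66.8 CPM in controls and 31.2, 31.4 and 30.7 CPM with the Cd276KO label. In tumors their sum is therefore not a leukocyte level alone. Per 1000 counts of these 8 genes, the 23 lymphocyte genes with low culture background had 43.7, 33.1 and 40.6 counts in control tumors and 16.6, 23.9 and 35.4 in Cd276KO tumors, an overlap, with a log2 ratio of -0.63. Macrophage sums overlapped, at 822 to 1698 CPM against 651 to 1191 CPM, and so did those of B cells, at 2.30 to 5.34 CPM against 1.50 to 2.47 CPM. Endothelial, mast cell, dendritic cell and fibroblast sums overlapped too, with log2 ratios of 0.01, 0.08, -0.41 and -0.42. These ratios of means hide the spread between control tumors. Fibroblast sums were 12420, 4020 and 369 CPM in controls and 3126, 5041 and 4432 CPM in Cd276KO tumors. Endothelial sums were 380, 226 and 103 CPM against 190, 292 and 234 CPM. Mast cell sums were 191, 47.9 and 262 CPM against 90.0, 232 and 208 CPM. The part of these cell types in the lymphocyte results was not tested.

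Between Cd276KO and control tumors, 15345 genes passed the filter on low counts and 826 were called, 338 higher and 488 lower. Of the 38 lymphocyte genes 23 passed, of which 2 fell (Gzmb and Ptpn22) and none rose. Without Cd276KO tumor 1, 2 or 3, the calls over all genes came to 1, 0 and 0, and neither the 2 member calls nor any call of a listed pathway or marker gene in tumors held without each of them. Over all tested genes 3.18% were called lower and 2.2% higher. The median log2 fold change of the 23 was -0.92 against -0.03 over all tested genes, with 18 negative and 5 positive values. Cd3g, Cd2, Cd5, Gzmb, Klrk1, Cxcr3, Cxcr6, Foxp3 and Il2ra, all negative, passed the filter beside cultures with control tumors but not with Cd276KO tumors. Only Ctsw did the reverse. Such genes can enter through the group where they are high, so the filter can favour negative values. The median and the signs are therefore descriptions. At an unadjusted p under 0.05 there were 8 of 23, against 3836 of 15345. Over all 38, 10 genes had every Cd276KO tumor below every control tumor and none the reverse, where 20.6% and 14.2% of all tested genes did so. The 10 include Prf1, Gzma and Gzmk, which had few counts and did not pass the filter, while the shares are over genes that did. The 2 are thus not on the same base.

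**Figure D2:**
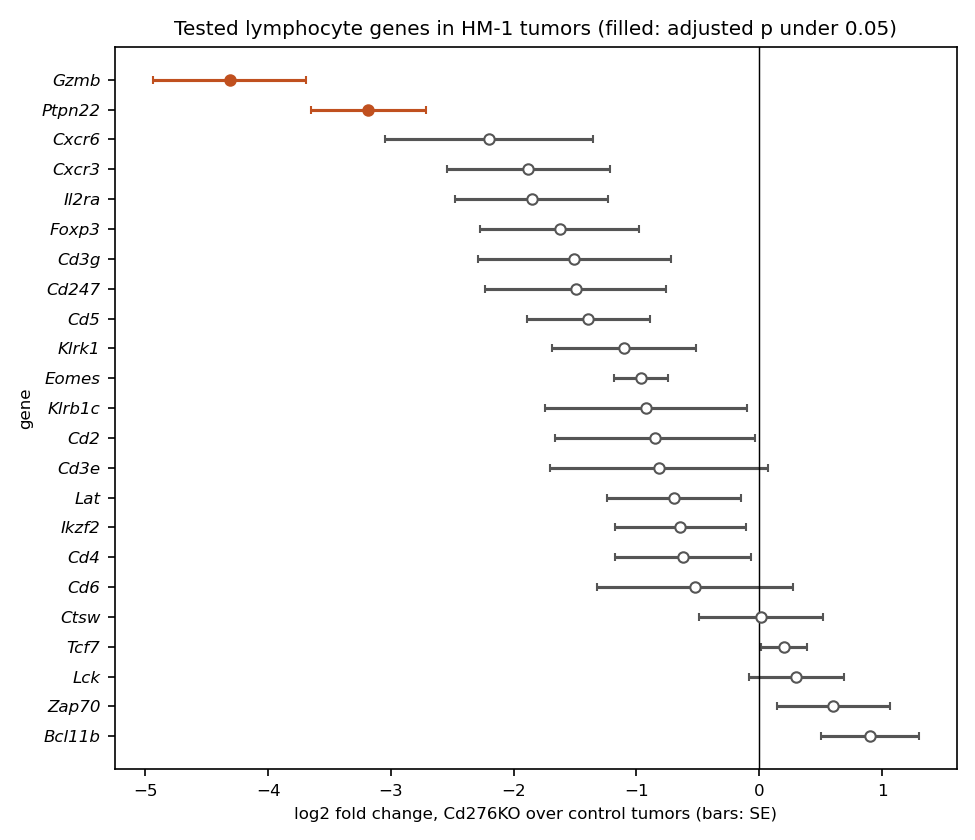
Log2 fold change of Cd276KO over control tumors with its SE for the 23 tested lymphocyte genes, filled where the edgeR adjusted p was under 0.05. Gzmb (-4.31) and Ptpn22 (-3.18) are filled, and 18 of the 23 points lie below 0. Genes could pass the filter through the control tumors where they are high, which can favour points below 0.

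Among cytotoxic granule genes, Gzmb, a protease delivered into target cells (chr14:56258838-56262260, minus strand), had 67, 54 and 141 counts in control tumors and 3, 5 and 4 counts in Cd276KO tumors. These are 2.71, 2.53 and 7.35 CPM against 0.167, 0.213 and 0.231 CPM, with no overlap and the highest value in control tumor 3. Gzmb fell by 4.31 on the log2 scale (SE 0.62, edgeR with Benjamini-Hochberg adjustment, adjusted p = 0.02574). Without control tumor 3 it was still called, with a log2 fold change of -3.57 and an adjusted p of 0.003895. Leaving out any of the Cd276KO tumors ended the call (adjusted p 0.0987 to 0.1536 by edgeR). Prf1, which encodes perforin, had 6, 31 and 26 counts in controls and 1, 2 and 4 in Cd276KO tumors, and was below the filter. Ctsw, a protease of cytotoxic lymphocytes, stood at 0.861 ± 0.509 CPM in controls and 0.852 ± 0.261 CPM in Cd276KO tumors (SD, n = 3), with a log2 fold change of 0.02 (edgeR adjusted p = 0.9884). Ctsw overlaps Fibp on the opposite strand, and the strand setting of the counting is not given, so its counts are uncertain. Gzma, Gzmk and Nkg7 were at or below 0.469 CPM in every tumor. Gzmk overlaps Esm1 on the opposite strand, so its counts are uncertain too. The granule genes together stood at 5.22, 5.53 and 10.3 CPM in controls and 1.17, 1.15 and 2.13 CPM in Cd276KO tumors.

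Ptpn22, a phosphatase that dampens T cell receptor signalling (chr3:103859795-103912247, plus strand), had 415, 284 and 712 counts in control tumors and 33, 64 and 48 in Cd276KO tumors. As levels these are 16.8, 13.3 and 37.1 CPM against 1.84, 2.72 and 2.77 CPM, without overlap and again highest in control tumor 3. It fell by 3.18 on the log2 scale (SE 0.47, edgeR adjusted p = 0.02576). Without control tumor 3 the log2 fold change was -2.55 (edgeR adjusted p = 0.003033), and leaving out any Cd276KO tumor ended the call (adjusted p 0.096 to 0.1536). In HM-1 cultures Ptpn22 went the other way, with 97, 142 and 149 counts in controls and 242, 247 and 234 in cultures labelled Cd276KO. The Cd276KO cultures at 12.1 ± 0.549 CPM lay above the Cd276KO tumors at 2.44 ± 0.526 CPM (SD, n = 3 each).

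The remaining signalling genes did not separate. Lck, the kinase bound to CD4 and CD8, stood at 4.98, 2.63 and 1.98 CPM in control tumors and 3.12, 3.75 and 4.61 CPM in Cd276KO tumors, with overlap and a log2 fold change of 0.30 (edgeR adjusted p = 0.6697). Zap70, the kinase that binds the CD3 chains, stood at 1.54, 0.703 and 0.521 CPM and at 1.45, 1.15 and 1.50 CPM. Lat, the adaptor below Zap70, stood at 1.98 ± 1.08 and 1.20 ± 0.487 CPM (SD, n = 3). Neither was called. Skap1 and Themis lay at or below 0.728 CPM in each tumor.

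CD3 and coreceptor genes were low and varied within groups. Cd3e, a chain of the receptor complex, had 40, 4 and 20 counts in control tumors and 2, 12 and 17 in Cd276KO tumors, and the groups overlapped. Cd3g had 56, 21 and 15 counts against 1, 11 and 15. Cd3d averaged 0.759 ± 0.467 and 0.299 ± 0.163 CPM, and Cd247, which encodes the zeta chain and overlaps Pou2f1 on the opposite strand, 0.894 ± 0.734 and 0.309 ± 0.204 CPM (SD, n = 3). Of the 4 CD3 genes 3 were tested and none was called, with a median log2 fold change of -1.50. Cd4 stood at 5.67, 2.72 and 1.30 CPM in controls and 1.28, 2.72 and 2.08 CPM in Cd276KO tumors, with a log2 fold change of -0.62 (edgeR adjusted p = 0.5326) that was 0.04 without control tumor 1. Cd5, an inhibitory receptor of T cells, stood at 2.59, 1.22 and 2.24 CPM against 0.334, 0.937 and 0.980 CPM without overlap, and was not called (log2 fold change -1.39, edgeR adjusted p = 0.1505). Cd2, an adhesion receptor of T and NK cells, averaged 1.29 ± 0.950 against 0.706 ± 0.608 CPM, and Cd6 averaged 1.05 ± 1.06 against 0.713 ± 0.411 CPM (SD, n = 3). The CD8 genes were close to the limit, with 10, 3 and 3 counts of Cd8a in controls and 1, 0 and 11 in Cd276KO tumors. Cd8b1 was at or below 0.243 CPM in each tumor.

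**Figure D3:**
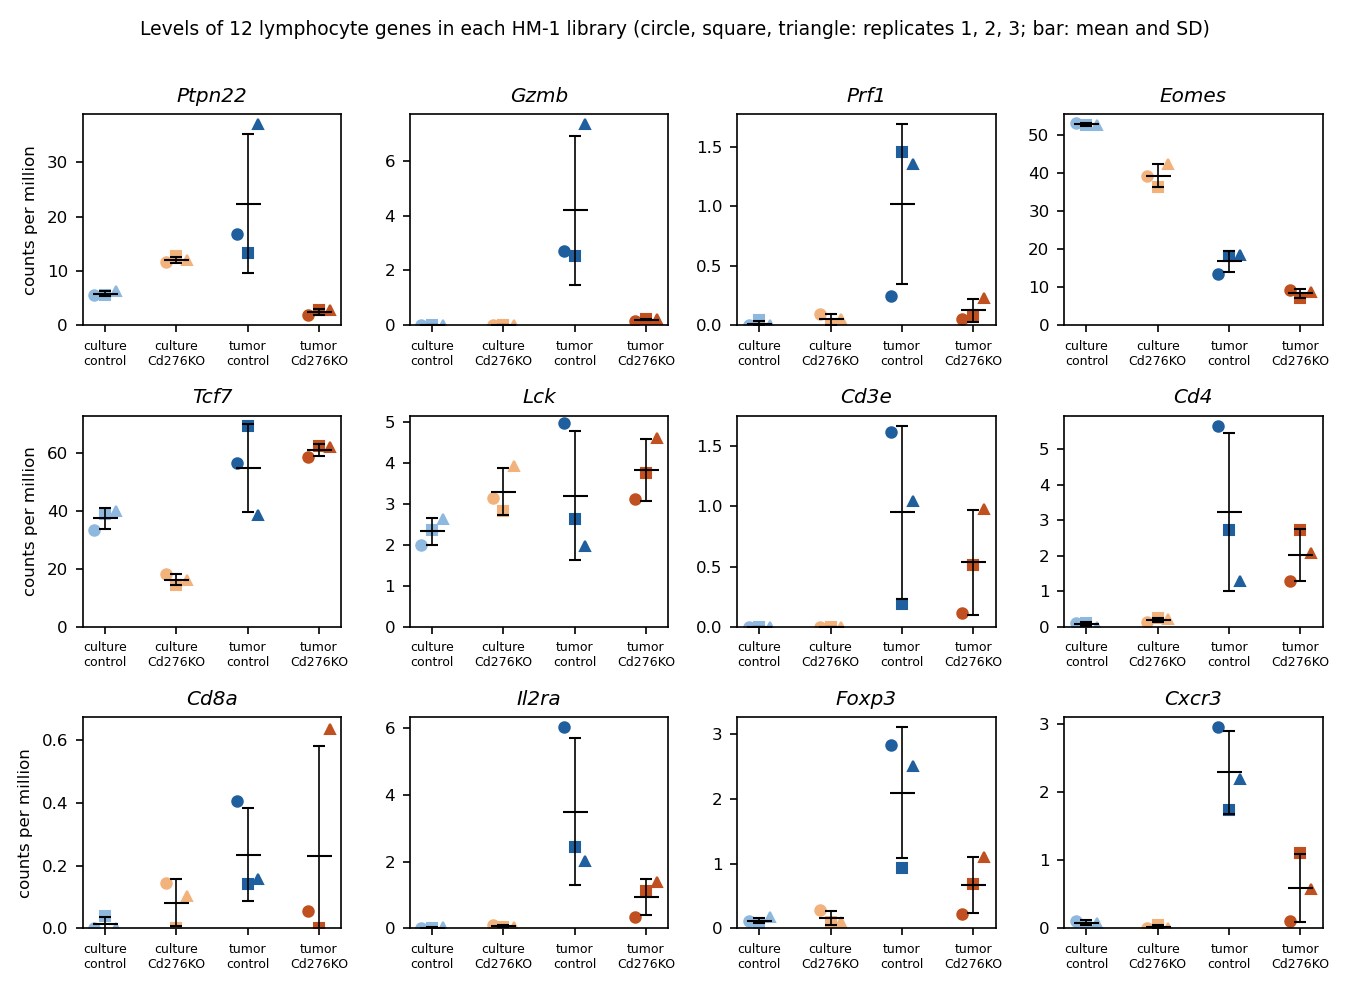
CPM of 12 lymphocyte genes in each library of the 4 HM-1 groups, with the mean and SD of each group. Gzmb, Ptpn22, Eomes, Il2ra and Cxcr3 separate the tumor groups, as does Prf1 from few counts. Cd3e, Cd4 and Cd8a overlap, and Ptpn22, Eomes, Tcf7 and Lck are also present in cultures.

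Genes of regulatory T cells and of homing were lower on average in Cd276KO tumors without passing the test. Il2ra, which encodes CD25, stood at 6.03, 2.44 and 2.03 CPM in control tumors and at 0.334, 1.11 and 1.38 CPM in Cd276KO tumors, without overlap (log2 fold change -1.85, SE 0.62, edgeR adjusted p = 0.1303). Foxp3, the defining factor of regulatory T cells, had 70, 20 and 48 counts against 4, 16 and 19, separated by 1 count. As levels this became 0.938 CPM at the lowest control and 1.10 CPM at the highest Cd276KO tumor, an overlap, with a log2 fold change of -1.63 (edgeR adjusted p = 0.1818). Foxp3 overlaps Ccdc22 and Ppp1r3f on the opposite strand. Ikzf2 stood at 2.38 ± 1.32 and 1.48 ± 0.705 CPM (SD, n = 3). Cxcr3, a receptor for interferon-induced chemokines, stood at 2.95, 1.74 and 2.19 CPM against 0.111, 1.11 and 0.576 CPM (log2 fold change -1.88, edgeR adjusted p = 0.1443). Cxcr6, the receptor for Cxcl16, which overlaps Fyco1 on the opposite strand, had 67, 35 and 33 counts against 0, 15 and 11 (log2 fold change -2.20, edgeR adjusted p = 0.1706). For both chemokine receptors every Cd276KO tumor lay below every control tumor.

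The tested NK genes, effector factors and lineage factors gave no call. Ifng, Fasl, Xcl1, Ncr1, Klrd1 and Tbx21 did not pass the filter, so they were not tested. Klrk1, an activating NK receptor, stood at 1.35 ± 0.724 CPM in controls and 0.608 ± 0.338 CPM in Cd276KO tumors, and Klrb1c at 0.670 ± 0.598 and 0.336 ± 0.198 CPM (SD, n = 3). Ncr1, found almost only on NK cells and related innate lymphocytes, had 6, 1 and 1 counts against 1, 1 and 2, and Klrd1 was at or below 0.364 CPM in each tumor. Ifng, the main cytokine of cytotoxic and helper T cells, had 1, 0 and 0 counts against 0, 0 and 2, so no difference was detectable at this depth. Fasl and Xcl1 were at or below 0.121 CPM in every tumor. Eomes, a factor of effector lymphocytes, stood at 13.5, 18.1 and 18.5 CPM against 9.29, 7.11 and 8.65 CPM, without overlap and just outside the threshold (log2 fold change -0.96, SE 0.22, edgeR adjusted p = 0.05605). Without control tumor 3 this was -0.84 (edgeR adjusted p = 0.05253). Tbx21, the related factor T-bet, was at or below 0.526 CPM in each tumor. Tcf7, a factor of naive and memory T cells, stood at 54.9 ± 15.3 and 61.2 ± 2.06 CPM, and Bcl11b, needed for T cell identity, at 2.61 ± 1.11 and 4.74 ± 1.28 CPM (SD, n = 3), neither called.

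The libraries differed in which genes they were high for. Control tumor 1 held the highest value of 26 of the 38 genes, and Cd276KO tumor 1 the lowest value of 20. Control tumor 3 was highest for 6 genes, Gzmb, Ptpn22 and Eomes among them, and lowest for 11. Within tumors, the ratio of Cd8a to Cd4 counts was 16 to 223 over the control tumors (0.0717) and 12 to 123 over the Cd276KO tumors (0.0976). Foxp3 counts per Cd3e count were 1.75, 5.0 and 2.40 in controls and 2.0, 1.33 and 1.12 in Cd276KO tumors. Gzmb per Cd8a was 16.4 over the control tumors and 1.0 over the Cd276KO tumors, from 16 and 12 Cd8a counts. Such small counts leave these ratios as descriptions.

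Related genes were taken from lists outside the set, and their counts of lower calls are to be read against the 3.18% of all tested genes called lower. Of 14 tested cytotoxic and NK genes, 1 fell and none rose. That was Gzmc, another granzyme, at 10.6, 7.27 and 5.47 CPM against 1.61, 1.49 and 0.346 CPM (log2 fold change -2.68, edgeR adjusted p = 0.04933). Srgn, the proteoglycan that packs granules, was highest on average in this list, at 97.8 ± 60.7 against 24.6 ± 5.68 CPM, and was not called (SD, n = 3, edgeR adjusted p = 0.05665). Of 27 tested other T cell pathway genes, 1 fell and none rose, a share near that over all genes. It was Tnfrsf9, the costimulatory receptor 4-1BB, at 34.1, 48.7 and 98.6 CPM against 14.2, 8.34 and 14.0 CPM. HM-1 cultures expressed Tnfrsf9 as well, and there too it fell, from 6.30 ± 0.508 to 1.57 ± 0.135 CPM with the Cd276KO label (SD, n = 3, log2 fold change -1.96, edgeR adjusted p = 0.0001586). Of 14 tested chemokines and priming signals, 4 fell. Ccl22, a chemokine that attracts regulatory T cells, stood at 101, 96.6 and 31.0 CPM against 8.35, 12.7 and 10.3 CPM (log2 fold change -2.81, edgeR adjusted p = 0.02717). Cd80, a ligand of the T cell costimulatory receptor CD28, stood at 18.2, 13.3 and 17.9 CPM against 2.89, 3.83 and 4.44 CPM (log2 fold change -2.11, edgeR adjusted p = 0.0206). The other 2 were Ccl17 and Cxcl16, of which Cxcl16 also fell in HM-1 cultures, from 5.00 ± 1.07 to 0.312 ± 0.185 CPM (SD, n = 3, edgeR adjusted p = 0.0004552). Without control tumor 3 these genes were still called, with log2 fold changes of -2.85 for Gzmc, -1.69 for Tnfrsf9, -3.16 for Ccl22, -2.01 for Cd80, -2.12 for Ccl17 and -0.94 for Cxcl16. Gzmc, Ccl17 and Cxcl16 lost the call without control tumor 1 or control tumor 2, and Tnfrsf9 and Ccl22 without control tumor 2 (edgeR adjusted p 0.0505 to 0.09246).

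T cell receptor constant genes disagreed with each other. Trac, of the alpha chain, had 81, 21 and 44 counts in control tumors and 13, 27 and 25 in Cd276KO tumors, and Trbc2, of the beta chain, had 34, 16 and 17 against 2, 10 and 14. Trbc1, the other beta chain constant gene, had 50, 19 and 43 counts against 184, 231 and 207, and rose by 2.66 on the log2 scale (SE 0.39, edgeR adjusted p = 0.02576). Without control tumor 3 it rose by 2.94 (edgeR adjusted p = 0.007673). It was the only 1 of 3 tested constant genes to be called. Trbc1 had 8 to 21 counts in each HM-1 culture, where Cd3e had none.

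Set against cultures, most of the tested lymphocyte genes were higher in control tumors, while Eomes was lower and Lck and Tcf7 were not called. Of 18 genes tested between control tumors and control cultures, 15 were higher, where 25.3% of all 14609 tested genes were called higher, and 1 was lower, where 16.6% were. Only 5 of the 38 genes passed the filter in HM-1 cultures alone (Lck, Ptpn22, Tcf7, Bcl11b and Eomes). Of those, Ptpn22 and Bcl11b were higher in control tumors, Eomes was lower, and Lck and Tcf7 were not called. The other tested genes, absent from cultures or low there, passed the filter through the tumors and so had to differ. In both arms, the shares called higher are therefore not a result about the set. Against a floor of 3 counts over the cultures, Gzmb was at least 89.3-fold higher in control tumors, Cd3g at least 31.3-fold, Klrk1 at least 31.3-fold and Zap70 at least 21.5-fold. In the knockout arm, 10 genes were tested, 7 higher against 41.2% of all tested genes and 2 lower against 34.5%. There Gzmb, with 12 counts over 3 tumors and 0 in cultures, was at least 4.07-fold higher. Eomes was lower in tumors than in cultures in both arms, with log2 fold changes of -1.80 and -2.37 (edgeR adjusted p = 0.000549 and 6.613e-07). Ptpn22 was higher in control tumors than in control cultures (1.82, adjusted p = 0.01053) and lower in Cd276KO tumors than in Cd276KO cultures (-2.44, adjusted p = 2.427e-06), all log2 fold changes by edgeR. Each of the 16 calls in the control arm held without HM-1 control culture 1 and without control tumor 3. Without that culture the values were -1.78 for Eomes and 1.80 for Ptpn22 (edgeR adjusted p = 0.004554 and 0.04672), and without that tumor they were -1.91 and 1.20 (0.0004617 and 0.003294).

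In the cultures themselves, 5 of the 38 genes passed the filter in HM-1 cells and 4 in ID8 cells. Of the 5 in HM-1 cells, 1 was higher with the Cd276KO label, where 11.6% of all 12457 tested genes were, and 2 were lower, where 16.1% were. Ptpn22 rose by 1.10 on the log2 scale (SE 0.10, edgeR adjusted p = 0.0004534). Tcf7 (chr11:52252371-52283014, minus strand) had 33.4, 39.2 and 40.2 CPM in controls and 18.2, 14.5 and 16.0 CPM in Cd276KO cultures, and fell by 1.17 (SE 0.11, edgeR adjusted p = 0.0006371). Eomes fell by 0.39 (SE 0.09, edgeR adjusted p = 0.01659), from 52.7 ± 0.327 to 39.2 ± 3.06 CPM (SD, n = 3), a call lost without Cd276KO culture 1 or 2 (adjusted p 0.07975 and 0.07809). Without HM-1 control culture 1, Ptpn22, Tcf7 and Eomes were still called, with log2 fold changes of 1.08, -1.23 and -0.37. Lck was not called, at 2.32 ± 0.319 against 3.30 ± 0.565 CPM.

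ID8 cells expressed another part of the set. Of the 38 genes, 19 had no count in any ID8 culture, Gzmb, Cd4 and Cd3e among them, and Ptpn22 had 1 count over 6 libraries. Of 4 tested, 1 was higher with the Cd276KO label, where 29.4% of all 12932 tested genes were, and 2 were lower, where 31.3% were. Tcf7 rose, from 6.41, 7.27 and 7.37 CPM to 11.7, 12.2 and 11.9 CPM (log2 fold change 0.84 with SE 0.10, adjusted p = 2.22e-07 by edgeR). Ikzf2 fell, from 11.2, 9.82 and 8.09 CPM to 5.97, 5.27 and 4.70 CPM (log2 fold change -0.79 with SE 0.13, adjusted p = 1.43e-05 by edgeR). Bcl11b had 39, 46 and 35 counts in ID8 controls and 0 in all 3 Cd276KO cultures, and was called lower (edgeR adjusted p = 3.885e-09). Ctsw was the gene not called, at 2.12 ± 0.393 against 2.64 ± 0.624 CPM.

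**Figure D4:**
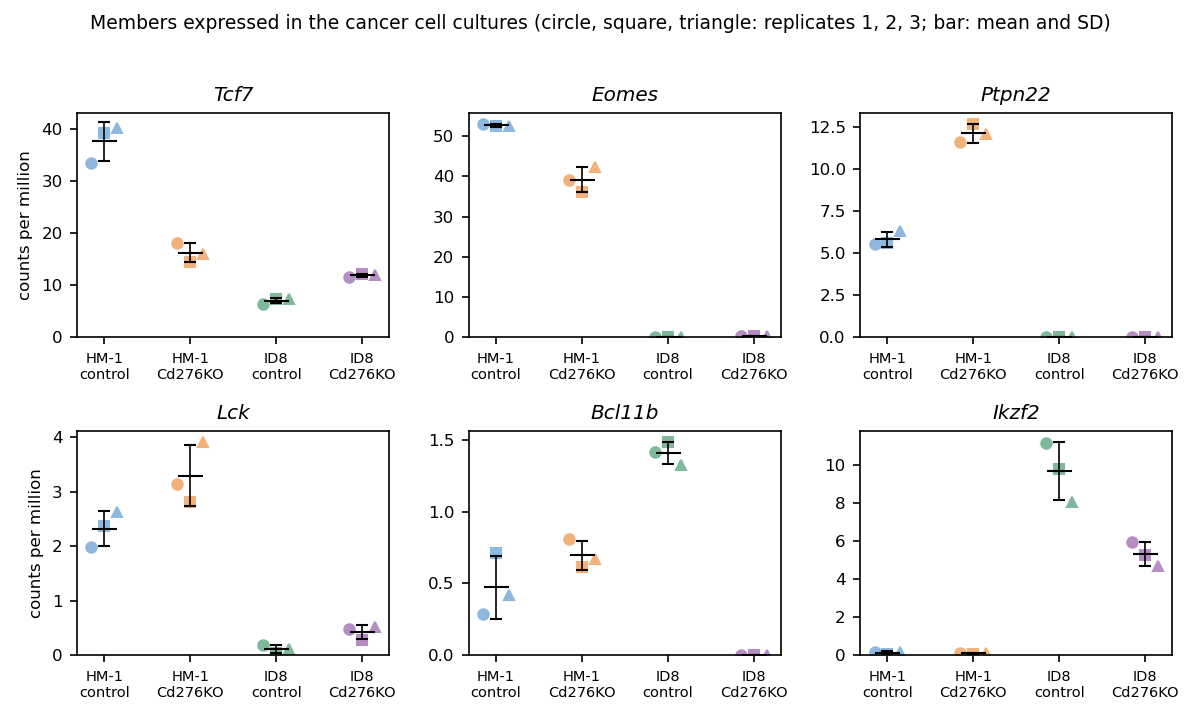
CPM of 6 genes of the set that the cancer cells expressed, in each library of the HM-1 and ID8 cultures, with the mean and SD of each group. Tcf7 is lower with the Cd276KO label in HM-1 and higher in ID8, and Bcl11b has no count in ID8 cultures labelled Cd276KO.

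The difference between knockout effects was tested for genes that passed a joint filter. Between tumors and HM-1 cultures 23 genes passed it, but Cd3e, Cd2 and Gzmb had no count in any HM-1 culture, so for these 3 there was no culture effect to compare. Of the other 20, 2 differed, where 2.84% of all tested genes did. Most of those 20 were too low in cultures to be tested there alone. Between ID8 and HM-1 cultures, 4 of 7 differed, where 40.4% of all tested genes did. These tests were chosen after the data were seen, and their values stand in the closing section.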

How the data were processed

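Total RNA of cells and of frozen tumors was purified by RNeasy columns, per the labels' protocols. The deposited table gives unnormalized whole read counts for each gene and library. Per the submitters' processing notes, the authors used Trim Galore, STAR and HTSeq on GRCm38 (mm10), with versions, annotation release and strand setting not given in the sources used here. Genes were named and placed by Ensembl identifier with GENCODE M21.

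CPM divides counts by the library total. Tests used edgeR 4.0.16 in R 4.3.3 (robust quasi-likelihood, TMM scaling, filterByExpr) on the 6 libraries of each comparison, called at a Benjamini-Hochberg adjusted p under 0.05 over all genes tested, and were checked on simulated counts. Alternatives were other scalings, no filter, DESeq2 1.42.0, limma 3.58.1 voom, 1 fit over 18 libraries, each library left out, and a replicate block. Members, gene lists and tests were chosen with earlier results of these data known. Genes were named when their mean over tumors reached 0.5 CPM, when called in any comparison, or from a short fixed list (Cd3e, Cd4, Cd8a, Ifng, Prf1, Ncr1, Foxp3); the other members are given by their range only; of each list, the 2 highest genes in tumors and up to 2 called genes could be named. Trbc2, Csf3r, Ly6g, Ccl17 and Cxcl16 fall outside it and were named after their values were seen. Promoter sequences are RefSeq's. Counting intervals and floors cover counting error only.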

Additional observations from a re-analysis of the deposited data

Results flagged for a closer look

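Knockout effects that differed between settings were flagged for 5 genes by an interaction term (edgeR quasi-likelihood, Benjamini-Hochberg adjusted over all genes, 12 libraries), given here as log2 differences. The tumor effect minus the HM-1 culture effect was -4.254 for Ptpn22 (adjusted p = 0.000669), which fell in tumors and rose in cultures. It was 1.36 for Tcf7 (adjusted p = 0.01447), a difference lost without HM-1 Cd276KO culture 2 or 3 (adjusted p = 0.05598 and 0.05189). The ID8 culture effect minus the HM-1 culture effect was 1.999 for Tcf7 (adjusted p = 3.578e-07), with opposite directions in the lines. It was 3.237 for Eomes (adjusted p = 0.0001304), a gene with 2 or fewer counts in each ID8 control culture. It was -8.608 for Bcl11b, a fitted value that depends on the prior count because all ID8 Cd276KO cultures were at 0. It was 1.463 for Lck (adjusted p = 0.0408), lost in 8 of the runs that left out 1 library (adjusted p up to 0.1438). Lck did not pass the filter in ID8 cultures alone. The 6 T cell receptor signalling genes, which include Lck, together had 10, 4 and 6 counts in ID8 controls. In ID8 cultures labelled Cd276KO they had 20, 11 and 14.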

How the results depend on the processing

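Between Cd276KO and control tumors, 2 members were called, and this count was 5 with DESeq2 (adding Prf1, Eomes and Il2ra), 4 with limma voom, 7 with 1 fit over 18 libraries and 0 to 3 when each library was left out. Over all genes the 826 calls became 2270, 3194 and 4001, and 1, 0 and 0 without Cd276KO tumor 1, 2 or 3, and 353, 263 and 1685 without control tumor 1, 2 or 3. Same-numbered tumors did not deviate together (correlations -0.66, 0.00026 and -0.10). With so few libraries this cannot exclude a pairing by number. With the replicate block, 0 members and 0 genes were called in tumors (Ptpn22 and Gzmb edgeR adjusted p = 0.08828 and 0.09349). The block gave 16 members in Cd276KO tumors against cultures. The block also ended the Eomes call in HM-1 cultures (adjusted p = 0.05329) and no other single-gene call. ID8 pairs correlated at 0.23, 0.063 and 0.22. Control tumors against cultures gave 16 calls, 25 with no filter and 17 to 20 with a library left out; Cd276KO tumors against cultures gave 9, then 23 with no filter, 21 with DESeq2, 20 with 1 fit over 18 libraries and 9 to 17 with a library left out. ID8 cultures gave 3, then 6 with no filter, 6 with DESeq2, 5 with 1 fit over 18 libraries and 3 to 5 with a library left out. In HM-1 cultures, all-gene calls were 3452, and 7577 with voom, and 7491 without control culture 1, and 1741, 1815 and 1725 without Cd276KO culture 1, 2 or 3. In control tumors against cultures they were 6107, and 9509 with voom and 9974 with 1 fit over 18 libraries. In ID8 cultures they were 7849, and 4260 with 1 fit over 18 libraries.

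The summed level ratio of -0.51 (log2) was -0.3515 per pan-leukocyte count, 0.3844 when Cd53 was left out of that count (chosen after the data were seen), -1.499 over low-background members, -1.222 without Tcf7 and -0.8622 as a median over members. The log2 ratio of Cd8a to Cd4 ran from -2.642 to 1.503, and of Gzmb to Cd8a from -5.022 to -1.033, with each tumor left out; the values -2.642 and -1.033, without Cd276KO tumor 3, rest on 1 Cd8a count.

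Of 66 single-gene results 44 were the same under all alternatives, 7 lost a call, 8 gained one and 7 changed sign. Ikzf2 in ID8 and Eomes in HM-1 cultures lost the call in the fit over 18 libraries (adjusted p = 0.1226 and 0.08974), and Bcl11b in control tumors against cultures without HM-1 control culture 3 (0.05134). The sign changes were of uncalled genes. In tumors they were Cd3e 0.8456, Cd6 0.1699 and Lat 0.05696 with voom, Cd6 0.7026 and Cd4 0.03561 without control tumor 1, and Ctsw -0.08281, -0.2847 and -0.2248 without control tumor 2, control tumor 3 or Cd276KO tumor 3. With each tumor left out, Cd6 ran from -0.9237 to 0.7026, Cd4 from -0.9708 to 0.03561 and Ctsw from -0.2847 to 0.5524. Lck against cultures was -0.1516 without control tumor 1, and in the knockout arm -0.01797 with no filter, -0.06066 without culture 2 and -0.06536 without tumor 3; with each library left out it ran from -0.1516 to 0.5401 in controls and from -0.06536 to 0.1882 in the knockout arm. The cause was not tested.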

Other observations

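Granzymes outside the set gave values in single tumors that the group means hide. Gzmf had 3, 57 and 56 counts in control tumors and none in Cd276KO tumors, and Gzmg had 9, 129 and 93 against 1, 0 and 0. Gzmd had 771, 104 and 94 counts against 41, 63 and 34. Gzme was also counted in HM-1 cultures, with 348, 435 and 366 counts in controls and 234, 215 and 220 in cultures labelled Cd276KO, and had 1148, 190 and 409 against 133, 245 and 110 in tumors. These genes are close copies of each other, and how the counting divided reads between such copies is not given in the sources used here. They were chosen after their values were seen.

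Trac was counted in ID8 cells, with 134, 137 and 142 counts in control cultures and 28, 36 and 21 in cultures labelled Cd276KO, while Cd3e had no count there. Cd53, a pan-leukocyte gene, rose in Cd276KO tumors (log2 fold change 1.44, edgeR adjusted p = 0.01515) and also in HM-1 cultures labelled Cd276KO (1.66, adjusted p = 0.0001161), while Cd52 and Lcp1 of the same list fell in tumors (-1.23 and -1.31, adjusted p = 0.03855 and 0.02573). All 3 were still called without control tumor 2 or control tumor 3, and none was called without any 1 of the Cd276KO tumors. Without control tumor 1, Cd53 and Lcp1 were still called, and Cd52 was not (edgeR adjusted p = 0.07592).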
